A study of Arabidopsis thaliana with 6 samples.

Results

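In seedlings of Arabidopsis thaliana, 271 of 22746 probe sets had a signal at least 2-fold lower at 30 °C than at 20 °C and a signal at 40 °C close to that at 20 °C, in wild type and in an AtrbohB mutant alike. They were chosen by these changes. Signals were raised to a floor of 13.7 and put on the log2 scale, on which a change of 1 is a doubling, and a probe set was taken when 30 minus 20 °C was at most -1 and 40 minus 20 °C lay within 0.5 either way in both genotypes. A further 2 probe sets of tau glutathione transferases that met these limits were left out. One gene is listed for 142 of the probe sets, which stand for 141 genes, while 2 have several listed genes and 127 have no listed gene and are not named.

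The study addresses how the respiratory burst takes part in thermotolerance. It used seedlings of the ecotype Col-0, either wild type (Col-0 in what follows) or a line named AtrbohB that carries a dSpm transposon insertion in At1g09090; whether this line is 1 isolate is not stated. Seedlings grown on MS medium with 16 h days were floated on distilled water at 20, 30 or 40 °C for a time that the labels do not give. There was 1 Affymetrix ATH1 array for each of the 6 combinations, each from 90 pooled plants, so no group has replicates and every value below is that of a single array.

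AtrbohB encodes an NADPH oxidase homologue; these plasma membrane enzymes release superoxide outside the cell and feed the burst of reactive oxygen seen in stress. Plants at a warm but tolerable temperature adjust growth, light responses and secondary metabolism, whereas severe heat mainly calls up chaperones. The genes described here share a dip at the middle temperature, and those described by role below were grouped by hand after their values were seen, so the size of a group says nothing about the genes as a whole.

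The 6 arrays had similar median signals (38.5 to 44.0) and similar shares of probe sets no higher than the floor (22.9% to 27.6%). The average background in the labels was 73.29, 72.54 and 78.77 in wild type at 20, 30 and 40 °C and 87.22, 63.26 and 74.13 in the mutant. Outlier cells numbered 751, 303 and 372 in Col-0 and 754, 299 and 1163 in AtrbohB, so both 30 °C arrays had the fewest. Their part in the results was not tested. Shoot and root RNA were present on every array. The shoot genes RCA, LHCB4.1, LHCB4.2 and PRK had signals from 1790.3 to 4291.3, the root gene PYK10 from 789.9 to 2684.3, and the root hair genes EXPA7 and EXPA18 from 23.7 to 51.8. Their levels were not constant. At 40 against 20 °C, PYK10 changed by -1.69 on the log2 scale, EXPA7 by -0.32, EXPA18 by 0.24 and the shoot genes by 0.26 to 0.70. At 30 against 20 °C the changes ran from -0.415 (PRK) to 0.487 (EXPA7). Whether the shares of the organs differed between arrays was not tested.

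Of all 22746 probe sets, 925 (4.07%) were at least 2-fold lower at 30 °C in both genotypes and 13738 (60.4%) were within the limit at 40 °C in both. Both conditions held for 273 (1.2%), which is 29.5% of the 925; the other 652 lowered probe sets did not come back within the limit in both genotypes. These counts restate the choice of the genes and carry no test. In bulk seedlings, fewer cells of a type and less RNA per cell cannot be told apart.

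Across the 271 probe sets the median signal was 120.5, 46.8 and 116.7 at 20, 30 and 40 °C in Col-0 and 119.5, 43.2 and 118.6 in AtrbohB. The change from 20 to 30 °C had a median of -1.32 in wild type, with -3.79 as its deepest value, and a median of -1.35 in mutant seedlings, with -3.83 as the deepest. Over all 18227 tested probe sets these medians were 0.00 and -0.12. The mean of both genotypes was a drop of at least 2 on the log2 scale in 26 probe sets, of 1.5 to 2 in 62 and of 1 to 1.5 in 183. At 30 °C, 20 probe sets were at the floor in both genotypes, 13 in the mutant only and 2 in wild type only; their falls are lower limits, and the floor is not a detection limit.

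**Figure D1:**
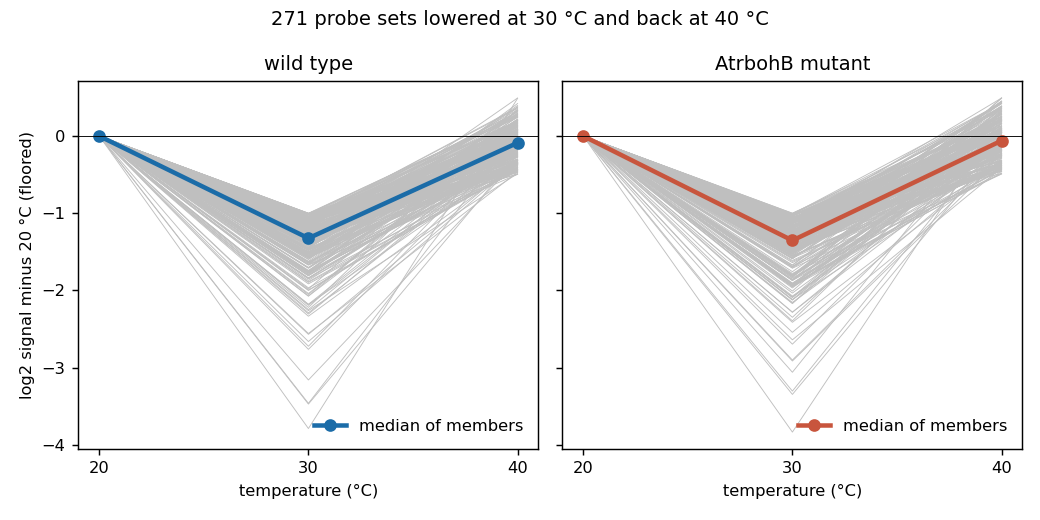
Change of each of the 271 probe sets against 20 °C (log2 of floored signal, y axis) at 20, 30 and 40 °C (x axis), in wild type (left) and the AtrbohB mutant (right), 1 array per temperature and genotype. Grey lines are single probe sets and coloured lines their median, which lay at -1.32 and -1.35 at 30 °C and at -0.09 and -0.06 at 40 °C.

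The median of 40 minus 20 °C was -0.09 in Col-0 and -0.06 in AtrbohB, against 0.08 and 0.05 over all tested probe sets. At 40 °C, 118 of the 271 were below their 20 °C signal in both genotypes, 63 were above it in both and 90 differed in sign or were equal in 1 genotype. Between 30 and 40 °C the signals were higher by a median of 1.27 in Col-0 and 1.29 in AtrbohB.

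The 2 falls of a probe set had a Pearson correlation of 0.76 across the 271. Both falls were used to choose the probe sets, so this value only describes the set. The fall was deeper in the mutant for 145 and deeper in wild type for 126.

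**Figure D2:**
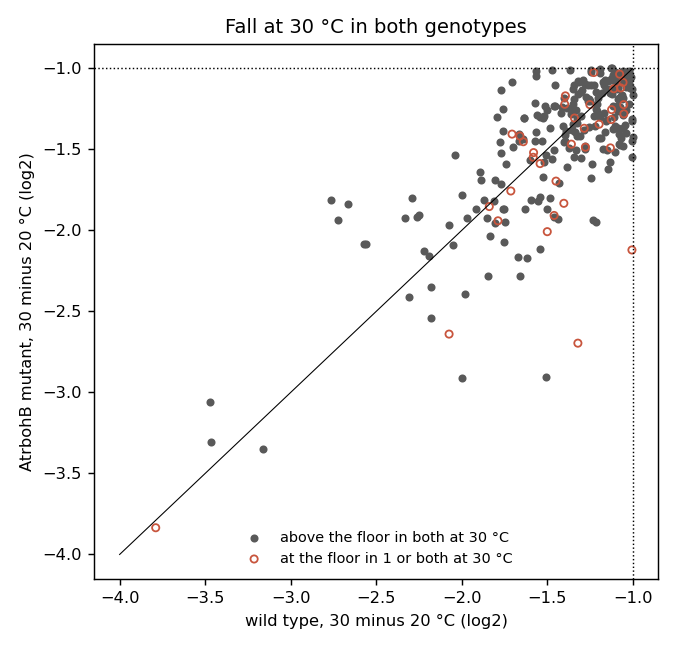
Change from 20 to 30 °C (log2) in wild type (x axis) and the AtrbohB mutant (y axis) for the 271 probe sets. Open circles were at the floor at 30 °C in 1 or both genotypes, dotted lines mark the limit of -1 used to choose the probe sets, and the diagonal marks equal change; 145 points lie below the diagonal.

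The annotated gene with the deepest dip was AT3G44450, an inhibitor of the cryptochrome blue light receptors. Its signals at 20, 30 and 40 °C were 211.7, 19.2 and 218.8 in Col-0 and 175.8, 17.8 and 183.9 in AtrbohB. It was 10.4-fold lower at 30 °C by the mean of both genotypes and within 0.07 of its 20 °C level at 40 °C in each. A probe set with no listed gene went further, from 240.6 to 17.4 and 337.1 in Col-0 and from 195.5 to 11.0 and 230.2 in AtrbohB. This is a drop of at least 14.0-fold, since the mutant was at the floor at 30 °C.

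The plastid genes described are 10, and their mean change at 30 °C ran from -1.88 to -1.06. AT4G38100, the thylakoid curvature protein CURT1D, had 180.3, 51.5 and 145.4 in Col-0 and 198.8, 51.3 and 144.5 in AtrbohB. The thylakoid calcium sensing receptor CaS, one of the brightest of all 271, had 1323.6, 620.0 and 1642.4 in Col-0 and 1425.2, 652.8 and 1839.7 in AtrbohB. Its 40 °C signals were above those at 20 °C, by 0.31 and 0.37.

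Several of these plastid proteins serve the NDH complex, which carries cyclic electron flow in the thylakoid. CRR42, needed for its assembly, had 90.3, 26.5 and 114.0 in Col-0 and 92.4, 32.2 and 126.6 in AtrbohB. CRR21, a pentatricopeptide protein that edits an NDH transcript, had 51.8, 22.8 and 38.6, and 51.2, 19.0 and 43.0. AT5G52780, a relative of the protein PAM68, had 242.2, 95.6 and 222.4, and 226.3, 105.5 and 242.8. All 3 had their lowest signal at 30 °C in both genotypes, CRR42 ending above its 20 °C signal and CRR21 below it. Of the other measured CRR genes, CRR28 was under the floor at 30 °C in both genotypes (2.1 and 11.1), CRR41 had -0.61 and CRR22 had -0.12.

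LPA66, a pentatricopeptide protein that edits a photosystem II transcript, had 59.3, 27.2 and 71.3 in Col-0 and 53.6, 26.8 and 65.0 in AtrbohB. The carotenoid enzyme LYC (lycopene beta-cyclase) had 450.4, 204.9 and 412.8, and 446.1, 200.3 and 397.0. AT1G44000, a stay-green-like protein of chlorophyll breakdown, had 769.9, 296.8 and 738.9, and 732.3, 260.8 and 660.0. The profiles of LYC and AT1G44000 differed little between genotypes, and both came back to within 0.17 of the 20 °C level. AT4G13050, an acyl-ACP thioesterase of fatty acid synthesis, had a mean change of -1.40 at 30 °C and 0.10 at 40 °C.

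SAPX, the stromal ascorbate peroxidase, which removes hydrogen peroxide in the chloroplast, had 205.4, 81.0 and 188.3 in Col-0 and 183.9, 80.6 and 170.5 in AtrbohB, a 2.40-fold lower signal at 30 °C. The genotypes were nearly equal at 30 °C. Other scavenging enzymes with a probe set were not chosen here and had a test. The glutathione reductases GR1 and GR fell at 30 °C (-0.96 ± 0.12 and -0.60 ± 0.11, SE, 2 arrays against 2), and the thylakoid ascorbate peroxidase TAPX had -0.05. The 2 arrays of a temperature are 1 of each genotype, so these SE do not measure the spread of replicate seedlings.

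Genes of phenolic and coumarin synthesis made a second group of 6. Coumarins such as scopoletin and fraxetin are phenolics that Arabidopsis roots release when iron is short. AT3G12900, the hydroxylase that acts on scopoletin, had 108.9, 22.7 and 77.8 in Col-0 and 112.0, 29.6 and 106.8 in AtrbohB, 4.26-fold lower at 30 °C. AT1G28680, the coumarin synthase that closes the lactone ring, had 163.6, 79.3 and 139.8, and 160.6, 76.5 and 146.1. Its 2.08-fold dip was shallower than that of AT3G12900, and its signals were alike in the genotypes. AT3G13610, the feruloyl-CoA hydroxylase at the head of the coumarin branch, was not chosen because it overshot at 40 °C: it had 417.2, 66.3 and 594.6, and 327.6, 80.7 and 655.3.

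UGT72E2, a glucosyltransferase of monolignols, had 111.5, 53.1 and 144.1 in Col-0 and 89.3, 39.7 and 121.0 in AtrbohB. Both genotypes ended above the 20 °C level, by 0.37 and 0.44. Its relative UGT72E1 was not chosen and had a mean change of -1.54 at 30 °C and 0.55 at 40 °C. ALDH2C4, an aldehyde dehydrogenase that makes ferulate and sinapate, had mean changes of -1.06 and -0.06, PRXR1, a class III peroxidase, -1.17 and -0.32. AT5G67150, an acyltransferase of the BAHD family, had 76.4, 16.7 and 71.9, and 73.1, 16.4 and 64.3, among the deepest dips.

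Cell wall genes had 5 members with mean changes at 30 °C from -2.36 to -1.23. GH9C2, of the endoglucanase family, had 254.0, 56.0 and 205.3 in Col-0 and 248.8, 42.7 and 210.1 in AtrbohB, 5.14-fold lower at 30 °C. The wall-loosening expansin EXPA8 had 118.3, 42.9 and 106.1, and 148.3, 39.2 and 110.3. AT4G30020, a subtilisin-like protease, had 101.6, 35.8 and 102.3, and 119.6, 16.0 and 102.5, with a much deeper dip in the mutant (-2.90) than in wild type (-1.51). BGLU44, a glycosidase, and ATKDSA2, which makes a sugar acid of pectin, had mean changes of -1.39 and -1.23 at 30 °C and -0.18 and 0.26 at 40 °C. Their families did not share the profile as a whole: of the 15 measured GH9 genes, 10 expansins of the EXPA family and 20 BGLU genes, 1 each was chosen, and the mean changes at 30 °C ran from -2.36 to 0.34, from -1.69 to 2.01 and from -1.39 to 1.45.

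**Figure D3:**
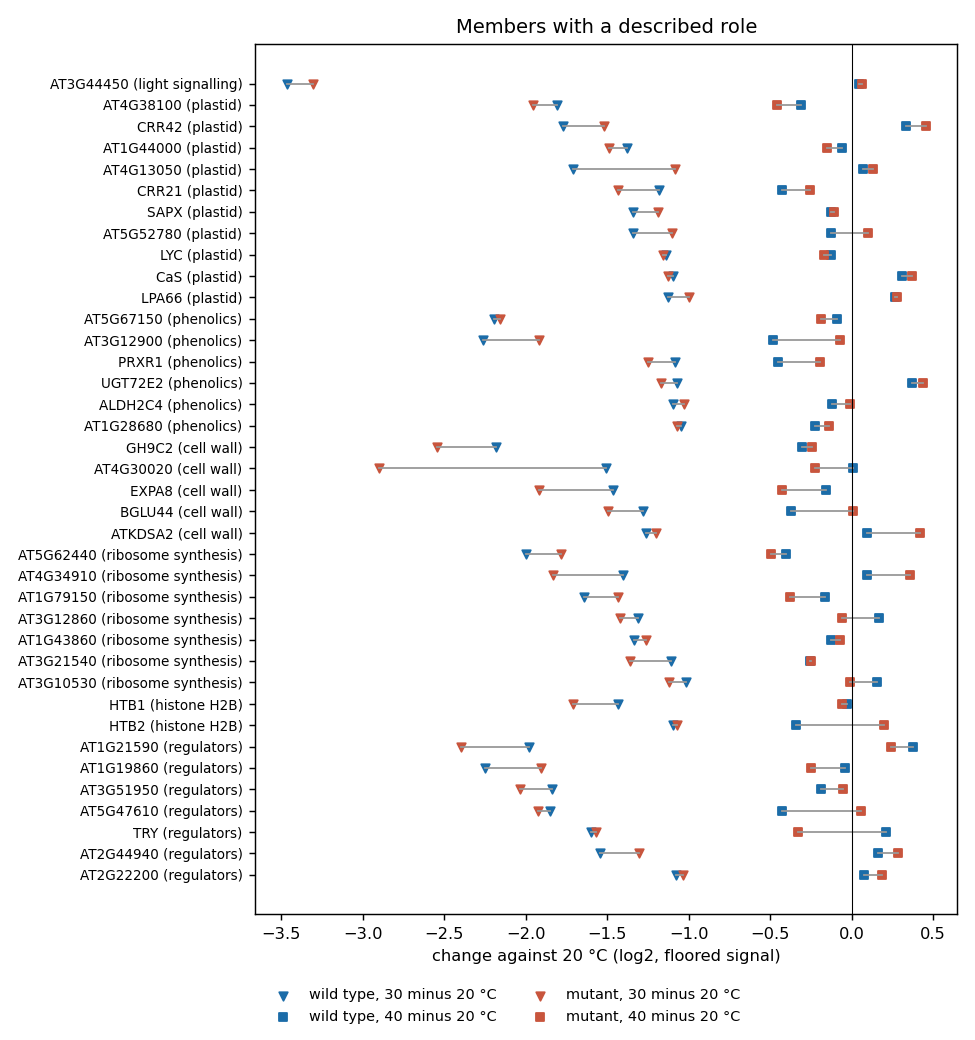
Change against 20 °C (log2, x axis) of the chosen genes with a described role (y axis, role in brackets), at 30 °C (triangles) and 40 °C (squares) in wild type (blue) and the AtrbohB mutant (red); a grey line joins the genotypes. All triangles lie at or beyond -1 and all squares within 0.5 of 0, as the choice requires; AT4G30020 has the widest gap between genotypes at 30 °C.

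Ribosome synthesis was represented by 7 genes with mean changes of -1.89 to -1.07 at 30 °C. AT5G62440, a nucleolar protein, was chosen through 2 probe sets. The first had 150.4, 37.6 and 113.7 in Col-0 and 157.0, 45.7 and 111.6 in AtrbohB, and the other had 183.7, 83.0 and 147.0, and 183.4, 59.5 and 139.2. Both show the dip, with mean changes of -1.89 and -1.39. AT3G12860, a homologue of the yeast nucleolar protein Nop56, had 50.0, 20.2 and 56.1, and 51.6, 19.3 and 49.5. AT1G43860, a relative of the SBDS protein that matures the large ribosomal subunit in yeast and mammals, had 107.1, 42.5 and 98.2, and 101.5, 42.4 and 96.6. These profiles were close to equal in the genotypes. The WD repeat proteins AT3G10530 and AT3G21540 had -1.07 and -1.23, and AT4G34910, a DEAD-box helicase, had at least -1.62, being at the floor in the mutant. AT1G79150, a homologue of yeast Noc3, had 60.6, 19.4 and 54.1, and 62.7, 23.2 and 48.3. Its second probe set did not show the dip in wild type, with 86.0, 79.6 and 101.3, and 94.2, 64.0 and 89.6 in the mutant, so the profile of this gene is uncertain. The second probe set of AT1G31050, a chosen gene as well, was at or under the floor at 20 and 30 °C.

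A pair of histone H2B genes was chosen. HTB1 had 159.8, 59.3 and 156.8 in Col-0 and 183.0, 56.0 and 176.0 in AtrbohB, and HTB2 had 110.9, 51.9 and 87.6, and 90.9, 43.2 and 104.3. HTB1 came back to within 0.06 of its 20 °C level, whereas HTB2 ended below it in wild type (-0.34) and above it in the mutant (0.20). The other measured H2B genes were HTB11, with a mean change of -0.68 at 30 °C, and HTB4, with 0.17. Near-identical H2B transcripts may hybridise to the same probes.

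Among 7 regulators, AT1G21590, a protein kinase, had 91.6, 23.2 and 119.1 in Col-0 and 99.9, 19.0 and 118.4 in AtrbohB, and ended above its 20 °C level in both. The CCCH zinc finger proteins AT1G19860 and AT3G51950 had 83.6, 17.6 and 81.3, and 97.4, 26.0 and 81.9, for the first, and 319.3, 89.4 and 280.6, and 350.6, 85.6 and 338.0, for the second. AT5G47610, a RING finger protein, had 542.7, 150.4 and 403.7, and 544.0, 143.6 and 566.6. It was equal in the genotypes at 20 and 30 °C, and at 40 °C wild type had the lower signal. TRY (TRIPTYCHON), a small MYB protein that holds back trichome formation, had 49.1, 16.2 and 56.9, and 50.9, 17.2 and 40.5. The AP2/ERF transcription factors AT2G44940 and AT2G22200 had -1.42 and at least -1.06, AT2G22200 being under the floor on both 30 °C arrays with signals of 3.0 and 2.8.

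ARD4, an acireductone dioxygenase of the methionine salvage cycle, had 748.5, 312.5 and 648.0 in Col-0 and 802.3, 374.2 and 604.2 in AtrbohB. It was one of the brighter genes and 2.27-fold lower at 30 °C. The carboxylesterase AT2G03550 had 169.9, 50.5 and 141.7, and 160.2, 38.1 and 131.8.

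When each array was centred on its median, 15 of the 20 deepest annotated genes met the limits and AT3G12900, AT3G61930, AT5G47610, AT5G49100 and AT5G62440 did not. Of the 42 genes named with values on every array, 28 met the limits on centring and 31 with log2(value + 16), and a return within 0.3 was held by 7 of the 20 deepest. The remaining genes among the 20 deepest have roles that are less well known. AT3G24460 had 57.7, 12.7 and 66.2 in Col-0 and 85.4, 8.0 and 64.2 in AtrbohB, at the floor on both 30 °C arrays and thus at least 5.12-fold lower. AT2G36430 had 120.2, 18.2 and 124.9, and 105.5, 27.6 and 84.6. AT1G22630 had 238.0, 37.6 and 188.2, and 194.6, 54.4 and 154.8. In the last pair, the dip was deeper in wild type.

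AT5G01790 had 116.2, 28.0 and 133.3 in Col-0 and 125.4, 29.4 and 130.1 in AtrbohB, nearly the same in both. AT3G12870 had 88.7, 35.5 and 71.6, and 88.8, 12.6 and 87.1, at the floor in the mutant at 30 °C, and its dip was deeper there. AT3G61930 had 73.1, 18.7 and 54.0, and 80.7, 21.3 and 57.9. AT3G61930 stayed below its 20 °C level at 40 °C, by -0.44 and -0.48. AT5G49100 had 112.9, 35.4 and 81.9, and 98.3, 21.9 and 104.9. For AT4G02850, related to bacterial phenazine synthesis proteins, the signals were 88.0, 28.6 and 102.6, and 108.0, 24.0 and 136.3, the 40 °C signal being the highest in both genotypes.

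**Figure D4:**
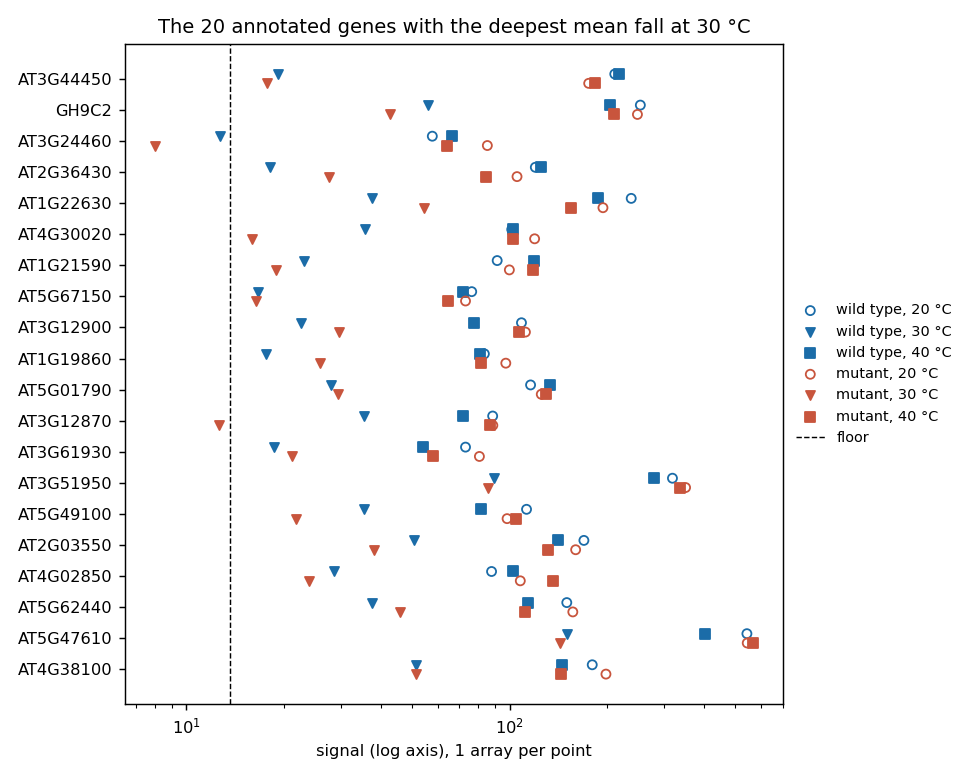
Signals (x axis, log scale) of the 20 annotated genes with the deepest mean fall at 30 °C (y axis), 1 point per array, wild type in blue and the AtrbohB mutant in red, open circles 20 °C, triangles 30 °C and squares 40 °C. In every gene both triangles lie left of the other points; the dashed line is the floor of 13.7, which AT3G24460 passed in both genotypes and AT3G12870 in the mutant.

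Some of the chosen genes are neighbours in the genome. In the RefSeq order of protein-coding genes, 4 pairs were adjacent: AT3G12860 with AT3G12870, AT4G02850 with AT4G02860, AT5G43140 with AT5G43150, and AT5G53020 with AT5G53030. At 30 °C the mean changes were -1.36 and -2.01 in the first pair, -1.90 and -1.19 in the second, -1.14 and -1.02 in the third and -1.39 and -1.16 in the fourth. Of the 141 genes, 103 have an adjacent gene with a probe set of its own. The falls of these pairs follow from the choice of the genes. The share of adjacent pairs in other sets of measured genes was not computed, so the 4 pairs do not tell whether the genes cluster.

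Values close to the limits show how narrow the choice is. LPA66 and AT2G23360 were just inside, with -1.0 as the smaller of their 2 falls, and so was AT5G23890 with -1.0. Just outside were AT3G14760 with -0.99, AT1G72250 with -0.99, and HCT, a central enzyme of phenolic synthesis, with -0.98. HCT had 816.7, 413.2 and 705.4 in Col-0 and 918.2, 417.9 and 870.9 in AtrbohB. At the limit on the return, AT3G01260, AT5G53020 and AT5G62440 (0.49 each as the larger departure) were inside, and AT5G66740, AT3G04760 and AT2G22400 (0.50, 0.50 and 0.51) were outside. No test applies to these values.

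Of the genes just inside, AT5G23890 had 93.7, 46.8 and 83.8 in Col-0 and 96.5, 44.2 and 77.9 in AtrbohB. AT3G01260 had 32.1, 7.5 and 22.8, and 27.9, 12.3 and 26.5, and AT5G53020 had 43.7, 16.7 and 61.5, and 40.6, 15.5 and 55.3. AT3G01260 was under the floor at 30 °C in both genotypes, and AT5G53020 ended above its 20 °C signal in both. Just outside the fall, AT3G14760 had 27.3, 2.8 and 31.7, and 30.3, 11.3 and 42.5, and AT1G72250 had 27.2, 10.4 and 29.2, and 27.6, 4.8 and 32.6. All 4 of their 30 °C signals lay under the floor, so their falls are lower limits. Just outside the return, AT5G66740 had 45.3, 1.5 and 38.1, and 46.5, 5.5 and 32.8, AT3G04760 had 276.1, 92.4 and 194.5, and 242.2, 79.7 and 192.0, and AT2G22400 had 119.7, 54.0 and 98.6, and 119.7, 56.1 and 84.3. These 3 were below their 20 °C signal at 40 °C in both genotypes.

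The mutant and wild type were compared over the 3 temperatures. The choice of genes did not use the size of this difference. It does limit how far the difference at 40 °C can depart from that at 20 °C. limma, with genotype and temperature as additive terms, called 0 of the 271 at an adjusted p under 0.05, as it did for 0 of 18227 probe sets (0.0%). At an unadjusted limma p under 0.05 there were 12 of the 271 (4.43%), against the similar share of 735 (4.03%) of all. The lowest limma adjusted p among the 271 was 0.978. The fit takes the genotype difference as equal at all temperatures and leaves 2 residual degrees of freedom. Its p-values thus rest on the departure of these arrays from additivity and not on replicate seedlings. The choice itself limits that departure for the 271, so their share is not strictly comparable with that of all. All 271 pass the filter on low signals, because the choice demands signals above the floor at 20 and 40 °C. The effect had a median of -0.01, with quartiles of -0.10 and 0.10, and -0.01, -0.11 and 0.09 over all tested probe sets.

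The genotypes also lay close at each temperature. Mutant minus wild type had a median of -0.02 at 20 °C, -0.02 at 30 °C and 0.03 at 40 °C over the 271, and 0.00, -0.03 and 0.00 over all tested probe sets. A difference of at least 2-fold was held by 1 of the 271 at 20 °C (0.369%), by 2 at 30 °C (0.738%) and by 0 at 40 °C. Over all tested probe sets the shares were 0.625%, 0.642% and 1.55%. The choice limits how far the difference at 40 °C can depart from that at 20 °C, so the shares at 40 °C are not strictly comparable. These single-array differences have no test.

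The 3 exceptions, singled out after their values were seen, were AT1G19960 at 20 °C and AT4G30020 and AT3G12870 at 30 °C. AT1G19960 had 27.5, 3.5 and 33.1 in Col-0 and 59.6, 4.7 and 61.3 in AtrbohB. The mutant was above wild type by 1.12 at 20 °C and by 0.89 at 40 °C, and at the floor in both genotypes at 30 °C. AT4G30020 and AT3G12870 were lower in the mutant at 30 °C by -1.16 and at least -1.37, and differed by 0.00 and 0.28 at 40 °C.

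**Figure D5:**
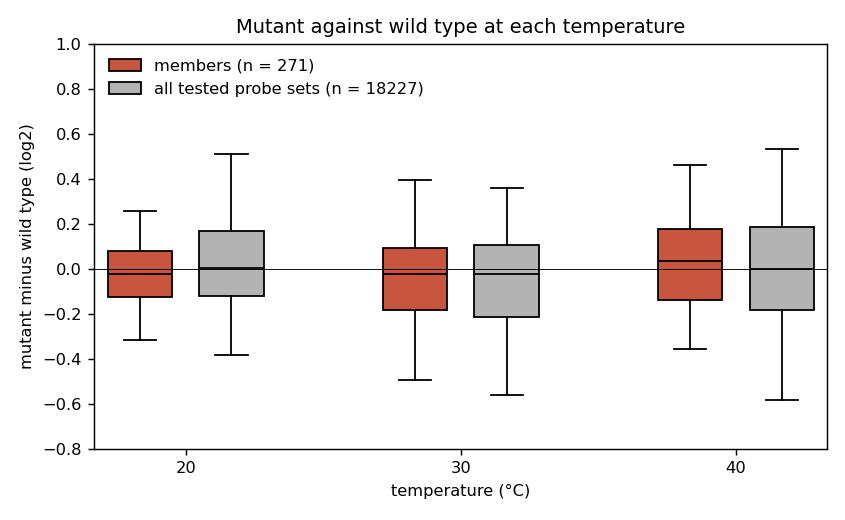
Mutant minus wild type (log2, y axis) at 20, 30 and 40 °C (x axis) for the 271 chosen probe sets (red) and all 18227 tested (grey), 1 array per genotype and temperature. Boxes span the quartiles with the median as a line, and whiskers run from the 5th to the 95th percentile; the medians of the chosen probe sets were -0.02, -0.02 and 0.03.

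Across the temperatures, 34 of the 271 were higher in the mutant at all 3 and 50 were lower at all 3. Together these were 31.0% of the 271, against 21.6% of all tested probe sets. A probe set at the floor in both genotypes at any temperature has no sign there and cannot be counted. No chosen probe set was at the floor at the lowest or the highest temperature. The choice also limits how far the genotype difference at the highest temperature can depart from that at the lowest. This can favour a shared sign among the 271, so the shares of 31.0% and 21.6% are not strictly comparable. How far these limits affect the comparison was not tested. The annotated genes with the largest smallest difference on the higher side were AT5G44410, of the berberine bridge enzyme family, AT2G23360 and AT1G10330, a pentatricopeptide protein. AT5G44410 had 33.5, 16.3 and 34.2 in Col-0 and 47.1, 21.7 and 41.1 in AtrbohB (0.39 ± 0.17, SE, 3 arrays against 3). AT2G23360 had 28.4, 14.2 and 34.0, and 36.6, 16.3 and 44.4 (0.32 ± 0.16). AT1G10330 had 36.1, 7.3 and 37.4, and 41.3, 17.7 and 46.1 (at least 0.29, as wild type was at the floor at 30 °C). None was called, each with a limma adjusted p of 0.978.

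On the lower side were UGT72E2 (-0.33 ± 0.12), AT2G44510 (-0.33 ± 0.17) and AT1G66130 (-0.26 ± 0.11), again with limma adjusted p = 0.978 in each. AT2G44510 had 54.8, 24.4 and 48.4 in Col-0 and 40.5, 18.9 and 42.3 in AtrbohB. AT1G66130, an oxidoreductase, had 175.4, 71.0 and 138.6, and 158.2, 53.9 and 118.1.

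Other genes were read from lists with 223 entries, of which only 40 had a listed probe set of their own, so the pathways are covered in part. Of these, 37 were tested and not chosen, among them the 3 root and 4 shoot genes given above. At 30 against 20 °C limma called 19 of them lower and 1 higher at an adjusted p under 0.05, where 20.7% and 14.9% of all tested probe sets were called, and at 40 °C 12 lower and 14 higher, against 14.7% and 13.5%. Without the mutant at 20 °C the first count was 11 and without the mutant at 30 °C it was 10. The counts at 40 °C were 4 and 1 when either 40 °C array was left out and 7 and 7 when either 30 °C array was left out. The higher count at 40 °C was 3 when the Col-0 array of 20 °C was left out and 4 when that of the mutant was. The comparisons share the 20 °C arrays, and each sets 1 array per genotype against 1 array per genotype. Their p-values thus rest on the departure from additivity and not on replicate seedlings. The lists were chosen with earlier results of these data known, so the counts describe these genes and are not independent support.

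Of 7 tested flavonoid genes, 4 fell at 30 °C and 0 rose, among them the flavonol glycosyltransferases UGT78D1 (-2.53 ± 0.14) and UGT78D2 (-3.19 ± 0.11) and CHIL, which helps chalcone isomerisation (-1.96 ± 0.23). At 40 °C these had -0.49, -1.80 and -0.95 and were called lower as well. In all, 4 of the 7 were called lower at 40 °C and 3 higher, the latter being DFR (0.82), AT4G14090 (0.67) and UF3GT (1.11). At 30 °C these 3 had 0.36, -0.33 and 0.12 and were not called. AT4G14090 was under the floor on both 30 °C arrays (1.4 and 1.7) and had only 15.5 and 19.2 at 20 °C. Its fall of -0.33 is thus a lower limit. UGT78D1 came nearest to the chosen profile, with 209.0, 36.4 and 142.6 in Col-0 and 186.2, 32.0 and 138.2 in AtrbohB. Of 5 tested iron genes besides AT3G12900, 4 fell at 30 °C. The iron deficiency regulators PYE and BHLH101 had -2.36 and -1.52 at 30 °C and -1.56 and -1.89 at 40 °C, each called, whereas AT3G13610 fell by 2.34 and then rose above its 20 °C level (0.76 ± 0.15).

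Of 5 tested chlorophyll genes, 4 fell at 30 °C, with values of -0.32 to -1.05, and at 40 °C 2 rose and 0 fell. PORB, a light-dependent protochlorophyllide reductase, had 292.3, 160.9 and 388.0 in Col-0 and 302.7, 128.1 and 687.2 in AtrbohB. The call of CHLM at 30 °C (-0.32) was lost on centring (-0.26), without the floor and filter and without the trend, the change in the last 2 being the same size. UGT74C1 (AT2G31790), a glucosyltransferase of glucosinolate synthesis, fell by 1.89 and rose above its 20 °C level by 0.76, while BCAT4 of the same pathway had -0.12 and 1.76. HYH, a light signalling factor, fell at both temperatures (-3.07 and -2.22). Without the floor and filter the 40 °C calls of CHIL, DFR, AT4G14090 and AT3G13610 and both calls of PORB were lost, and after quantile normalization those of UGT78D1 and AT4G14090 at 40 °C were lost. Lists of phosphate starvation, brassinosteroid and gibberellin synthesis and cell division genes had 0 genes with a listed probe set of their own.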

How the data were processed

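Per the labels, RNA from 90 pooled seedlings per group was hybridised to 6 Affymetrix ATH1 arrays, 1 per genotype and temperature. The deposited intensity values are linear, 1 per probe set, and each column has a mean of 100 after 2% is trimmed at each end; how the authors summarised probes is not given in the sources used here. The mutant array of 40 °C has the word repeat in its title.

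Of 22810 probe sets, 64 controls were left out. A floor of 13.7, the 25th percentile over the pooled values of the 6 arrays, was set before log2 was taken. The 18227 probe sets that exceeded it in 2 or more arrays were fitted with limma 3.58.1 in R 4.3.3 (genotype plus temperature, trended prior, 2-sided, Benjamini-Hochberg over all, called under 0.05). The procedure was tested on simulated data. Python 3.11.15, numpy 2.4.6, pandas 2.3.3 and matplotlib 3.10.9 did the rest. GEO's platform annotation gave 1 gene for 13513 probe sets, several for 503 and none for 8730, and 13436 of the first were matched to current names in RefSeq (TAIR10.1), which was used for names and neighbours only.

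The members, the gene lists and the tests were chosen with earlier results of these data known, and the role groups after the values were seen. Values on every array are given for the 20 annotated genes with the deepest mean fall at 30 °C, members on a list, the 3 higher and 3 lower in the mutant with the largest smallest difference of 1 sign, genes at the limits and up to 15 more of known role. Other genes come from the lists, or are relatives or neighbours of a member. Alternatives were 2 other scalings, 2 other floors, a pseudocount, a stricter filter, other limits, 2 variance models and leaving out each array. Precision is limited by the number of arrays. Promoter sequences were not used here.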

Additional observations from a re-analysis of the deposited data

Results flagged for a closer look

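Among the genes described with values on every array, 11 ended on opposite sides of their 20 °C level at 40 °C in the 2 genotypes. Each is a difference between single arrays, within the limit of 0.5 either way, and was not tested. Values are the mutant's change from 20 to 40 °C minus that of wild type, on the log2 scale.

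In 6 genes the mutant had the lower response. The difference was -0.61 for AT3G24460, -0.374 for AT2G36430, -0.233 for the subtilase AT4G30020, -0.227 for AT5G44410 of the berberine bridge enzyme family, -0.226 for the Nop56 homologue AT3G12860 and -0.543 for the MYB protein TRY. TRY was 0.21 above its 20 °C level in wild type and -0.33 in the mutant. Some departures were very small: AT4G30020 and AT5G44410 were only 0.01 and 0.03 above their 20 °C level in wild type.

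In 5 genes the mutant had the higher response. The difference was 0.557 for AT5G49100, 0.486 for the RING finger protein AT5G47610, 0.242 for AT2G44510, 0.225 for AT5G52780, a relative of PAM68, and 0.538 for the histone gene HTB2. The mutant array at 40 °C had 1163 outlier cells, the most of the 6, and its part in these differences was not tested.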

How the results depend on the processing

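The number of probe sets depends on how they are chosen. It was 271 as reported, 239 after quantile normalization (208 shared), 195 on centring (186 shared), 204 with the floor at the 40th percentile, 332 without a floor and 236 with all 6 arrays above the floor. It was 169 with log2(value + 16) (142 shared), 63 with a fall of at least 1.5, 136 with a return within 0.3, 514 by the mean of both genotypes and 141 with 1 probe set for each annotated gene, a choice added after seeing the data. The cause was not tested where scaling moved it.

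No chosen probe set was called between genotypes by limma under any of the 14 alternatives. Over all probe sets 1 was called with log2(value + 16) and 1 with all arrays above the floor, against 0. Leaving out either array of a temperature gave the same genotype differences, so these alternatives are not separate checks. The median difference at 20 °C was -0.082 on centring, and at 30 °C it was 0.014 after quantile normalization and 0.028 on centring, both of the opposite sign to -0.02. The 6 genes named for the genotype comparison were not called under any alternative in which they were tested, AT1G10330 having no value with all 6 arrays above the floor.

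Of list genes, those higher at 30 °C numbered 2 with the floor at the 40th percentile and 0 without the trend, and those higher at 40 °C numbered 6 without a floor. Leaving out 1 array at a time, with 1 residual degree of freedom, gave 10 to 16 lower and 0 to 0 higher at 30 °C, and 4 to 8 lower and 1 to 7 higher at 40 °C. The additive fit already compares the genotypes within each temperature, and with 1 array per group no further replicate block can be fitted. Signals under the floor limit the depth of a dip that can be read.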
